A study of Mus musculus with 10 samples.

Results

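The genes described here are the integrin and laminin subunits of mouse skin tumors. Protein-coding genes were taken by symbol, as *Itga* or *Itgb* with a number or one of the letters d, e, l, m, v and x, *Itga2b*, or *Lama*, *Lamb* or *Lamc* with a digit. Described are 36 of the 35275 genes listed for every tumor, of which 18 encode integrin α subunits, 8 encode integrin β subunits and 10 encode laminin chains. Of these, 35 passed the filter on low counts and were tested, and *Itgad*, with 0 to 12 counts per tumor, was not.

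RNA was sequenced from 10 cutaneous tumors, 5 labelled LDHA-/- (*Ldha*-null tumors 1 to 5) and 5 labelled wild type (wild-type tumors 1 to 5), 1 tumor per mouse as the series describes it. The study raised squamous cell carcinoma from hair follicle stem cells, by genetic or by chemical means, but which model gave the sequenced tumors, and with it the age of the mice at harvest, could not be learned from the labels or the methods. Each model was started in young adult mice. Where deletion of *Ldha*, which encodes the A subunit of lactate dehydrogenase, depends on Cre in stem cells, cells that escaped it and all stromal cells keep the gene, and the study describes some *Ldha*-null tumors as mosaic. The labels name squamous carcinoma cells, whereas the protocol describes whole fresh tumors and no sorting, so fewer cells of a type and less RNA per cell cannot be told apart in any value below. *Ldha* transcript stood at 246 to 1882 FPKM in the tumors labelled null and at 340.1 to 2824 FPKM in those labelled wild type, so it did not separate the labels, and the genotype names below are those of the labels. FPKM is the fragment count of a gene scaled by its length and by the total count of the tumor.

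Total counts were 12969508 to 17694201 per tumor. Wild-type tumor 5 and tumors 1 and 3 of the *Ldha*-null group stood apart from the other 7 tumors on the first principal component of all tested genes, which held 43.4% of the variance. The 8 keratinocyte markers summed to 34376 FPKM for *Ldha*-null tumor 3 and to 37877 for wild-type tumor 5, against 287 to 5445 FPKM elsewhere, and the 8 skeletal muscle markers summed to 105715 FPKM in *Ldha*-null tumor 1, against 50.1 to 251 FPKM elsewhere. The 7 fibroblast markers summed to 690 FPKM in *Ldha*-null tumor 1, to 2041 in *Ldha*-null tumor 3, to 2991 in wild-type tumor 5 and to 7096 to 10498 FPKM in the other 7. When 1 of these tumors was left out, the log2 fold changes of 11 of 35 members moved by more than 1.5-fold, and for each of them a value without 1 tumor is given below. The scale factor from TMM, edgeR's scaling of libraries by the bulk of their genes, by which log2 CPM but not FPKM is adjusted, was 0.589 in *Ldha*-null tumor 1 and 0.881 to 1.2 elsewhere, so this tumor stands lower against the others in FPKM than in log2 CPM.

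Integrins are cell surface receptors built from one α and one β subunit, and most of them bind proteins of the extracellular matrix. Laminins are trimers of an α, a β and a γ chain that form the sheet of the basement membrane. In skin, basal keratinocytes are anchored by hemidesmosomes, in which integrin α6β4 (*Itga6*, *Itgb4*) binds a laminin built with the chains of *Lama3* and *Lamb3*, while leukocytes carry their own integrins around *Itgb2* and *Itgb7*. The members were therefore read in 5 groups, named hemidesmosomal (4 genes), other epithelial (4), mesenchymal (12), leukocyte (8) and broad or other (8), after where these genes are best known to be used.

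Promoters are shown for 3 members that mark the contrasts described below. *Lamb3* encodes the laminin chain with the widest spread between tumors, and *Itgam* and *Itgb7* encode leukocyte subunits that were highest in different tumors. Each sequence holds the 250 bases before the start of transcription, in the direction of transcription, from RefSeq (GRCm38.p6, the build of the gene coordinates), with capitals marking GAGGAA on either strand, the core of sites bound by the myeloid factor PU.1. *Lamb3* lies on the plus strand of chromosome 1 (chr1:193301744-193301993), *Itgam* on the plus strand of chromosome 7 (chr7:128062390-128062639) and *Itgb7* on the minus strand of chromosome 15 (chr15:102231936-102232185). For *Lamb3*, the more upstream of 2 RefSeq windows is shown. The gene start listed with the counts is 193301957, so the end of this window lies inside the listed gene.
*Lamb3*: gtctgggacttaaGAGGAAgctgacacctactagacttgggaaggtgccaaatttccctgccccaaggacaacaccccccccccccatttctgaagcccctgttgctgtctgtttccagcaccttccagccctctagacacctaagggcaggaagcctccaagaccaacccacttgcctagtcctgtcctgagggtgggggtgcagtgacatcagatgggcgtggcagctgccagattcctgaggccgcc
*Itgam*: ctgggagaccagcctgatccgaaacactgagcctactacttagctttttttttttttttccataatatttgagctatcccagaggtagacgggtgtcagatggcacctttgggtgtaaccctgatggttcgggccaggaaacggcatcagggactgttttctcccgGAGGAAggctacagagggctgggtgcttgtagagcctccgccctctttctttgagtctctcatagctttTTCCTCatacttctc
*Itgb7*: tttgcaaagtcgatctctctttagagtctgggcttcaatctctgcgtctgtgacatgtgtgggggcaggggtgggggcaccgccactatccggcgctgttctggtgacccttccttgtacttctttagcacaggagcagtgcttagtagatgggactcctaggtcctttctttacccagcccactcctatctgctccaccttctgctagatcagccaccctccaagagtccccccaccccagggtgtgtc
GAGGAA occurred 2 times in the *Itgam* window, at -84 to -79 and, on the opposite strand, at -15 to -10, counted back from the start. It occurred 1 time in that of *Lamb3*, at -237 to -232, and these letters were not in the *Itgb7* window. Windows were at hand for 23 of the 36 members (26 windows), of which 13 windows held GAGGAA, against 23.3% of all 32841 windows of this length. They belonged to 13 members, of which *Itgam* was the only leukocyte subunit. The others were *Itga11*, *Itga2b*, *Itga3*, *Itga5*, *Itgav*, *Itgb1*, *Itgb6*, *Lama2*, *Lama5*, *Lamb1*, *Lamb2* and *Lamb3*. Whether PU.1 binds at any of these letters was not tested. TGANTCA, the letters of an AP-1 site with any base in the middle, was in 1 member window, that of *Itgax*, and in 6.75% of all windows.

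Between the genotypes, no integrin or laminin subunit passed the test. In edgeR's quasi-likelihood test with Benjamini-Hochberg adjustment, 0 of 35 members and 0 of 15176 genes (0.0%) had an adjusted p under 0.05. At an unadjusted p under 0.05 there were 0 members, where the background over all genes was 3.96% (3.56% higher and 0.395% lower in *Ldha*-null tumors). DESeq2 gave 0 members at an adjusted p under 0.05 and 1, *Itgb6*, at an unadjusted one, against 2.61% of 25260 genes. It gave no p for *Lama3*, *Lamb3* and *Itga2*. In 0 of 35 members did every *Ldha*-null tumor lie to one side of every wild-type tumor, against 0.185% of all genes. Log2 fold changes (*Ldha*-null over wild-type) were positive for 12 members and negative for 23, with a median of -0.13, where 52.8% of all genes were positive and their median was 0.02.

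**Figure D1:**
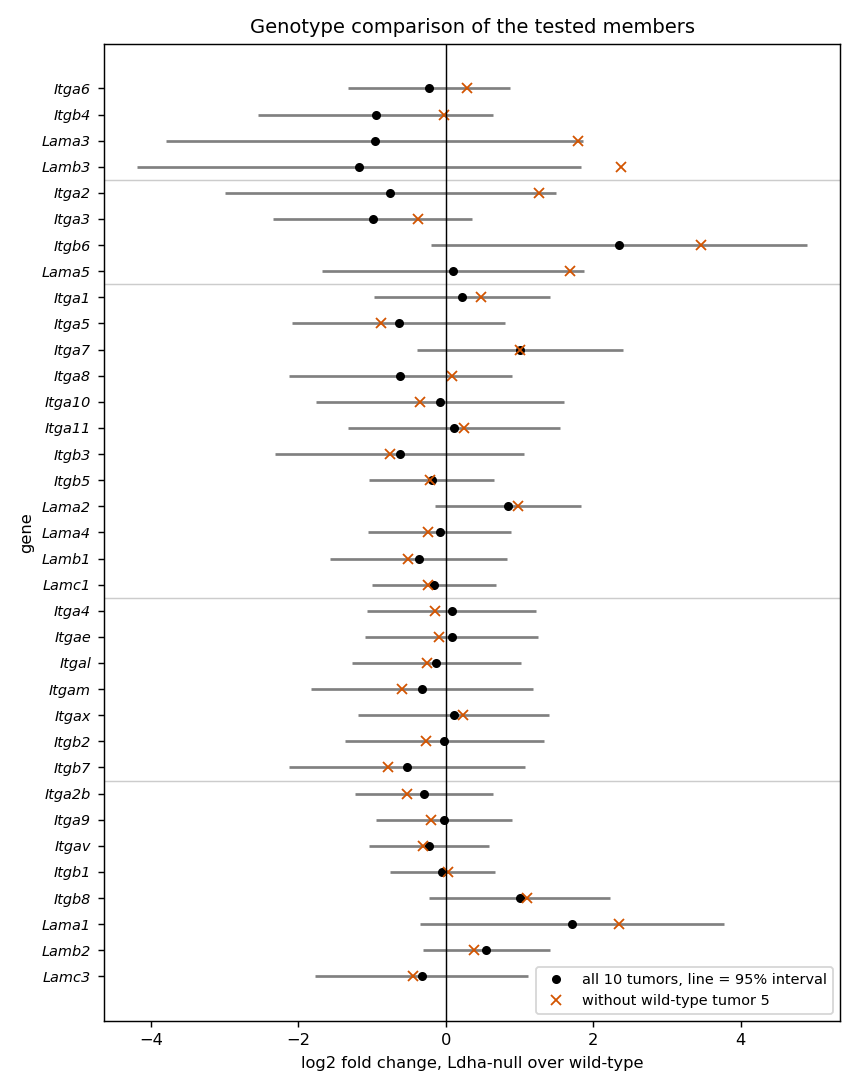
Log2 fold change (*Ldha*-null over wild-type, horizontal axis) of the 35 tested members from edgeR, with black points for all 10 tumors, lines for their 95% intervals and crosses for the fit without wild-type tumor 5. Every interval spans 0, and the crosses of *Lama3*, *Lamb3* and *Itga2*, among others, lie on the other side of 0 from their points.

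The subunits varied widely within each genotype. The median SD within a genotype was 1.11 on the log2 CPM scale for members, against 0.64 for all tested genes, and it was 1.67 for the hemidesmosomal group, 1.48 for the other epithelial, 1.13 for the leukocyte, 1.08 for the mesenchymal and 0.74 for the broad group. *Lamb3* had the largest SD of the members, 2.29, larger than that of 97.4% of tested genes. *Itgb1*, the β subunit shared by most integrins that bind collagen, fibronectin and laminin, had the smallest, 0.48. On this scale *Ldha*-null tumor 1 was the lowest of the 10 for 17 members and wild-type tumor 5 the highest for 8.

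**Figure D2:**
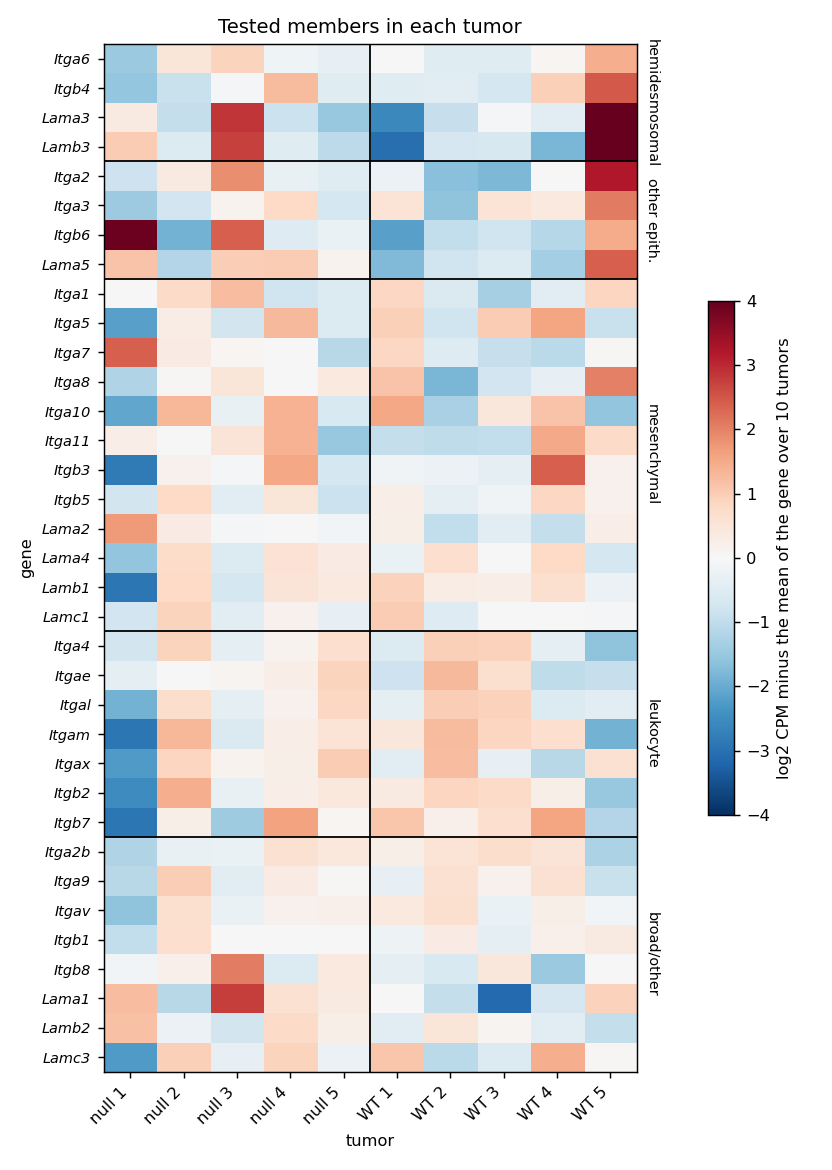
Log2 CPM of the 35 tested members (rows, in the 5 groups) in each tumor (columns), as the difference from the mean of the gene over 10 tumors, with red for higher and blue for lower. *Lama3* and *Lamb3* are high in *Ldha*-null tumor 3 and wild-type tumor 5, *Itgb6* and *Itga7* are high in *Ldha*-null tumor 1, and the leukocyte rows are below their means in *Ldha*-null tumor 1.

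The hemidesmosomal chains were highest in wild-type tumor 5 and, for the laminin chains and *Itga6*, next highest in *Ldha*-null tumor 3. On the log2 CPM scale 5 of 35 members had these tumors as their highest pair, against 11.8% of all tested genes, a share near that of the members. *Lama3*, which encodes a laminin α chain of the hemidesmosome, stood at 1.77, 1.34, 15.3, 1.44 and 0.979 FPKM across *Ldha*-null tumors 1 to 5, and at 0.433, 1.39, 2.44, 1.81 and 38.6 FPKM across wild-type tumors 1 to 5. *Lamb3*, which encodes its partner β chain, stood at 9.18, 5.81, 45.3, 6.10 and 4.51 FPKM across *Ldha*-null tumors and at 1.03, 5.44, 5.39, 2.21 and 163 FPKM across wild-type tumors. One tumor of each genotype was thus far above the rest for both chains, and the genotypes overlapped. The 2 tumors were also those with the highest keratinocyte marker sums, and the part of keratinocyte number in these levels was not tested.

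*Itga6* and *Itgb4*, the subunits of α6β4, kept high levels in more of the tumors. *Itga6* stood at 19.0, 141, 151, 89.6 and 88.2 FPKM across *Ldha*-null tumors 1 to 5 and at 105, 72.2, 71.7, 99.4 and 238 FPKM across wild-type tumors 1 to 5. *Itgb4* stood at 12.5, 36.8, 52.2, 166 and 53.6 FPKM across *Ldha*-null tumors and at 50.4, 51.5, 41.9, 126 and 328 FPKM across wild-type tumors. Both were lowest in *Ldha*-null tumor 1 and highest in wild-type tumor 5, and the genotypes overlapped. After wild-type tumor 5, *Itgb4* was highest in *Ldha*-null tumor 4 and then in wild-type tumor 4, where the keratinocyte markers summed to 926 and 582 FPKM, and it was 3.17 times lower in *Ldha*-null tumor 3 than in *Ldha*-null tumor 4.

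**Figure D3:**
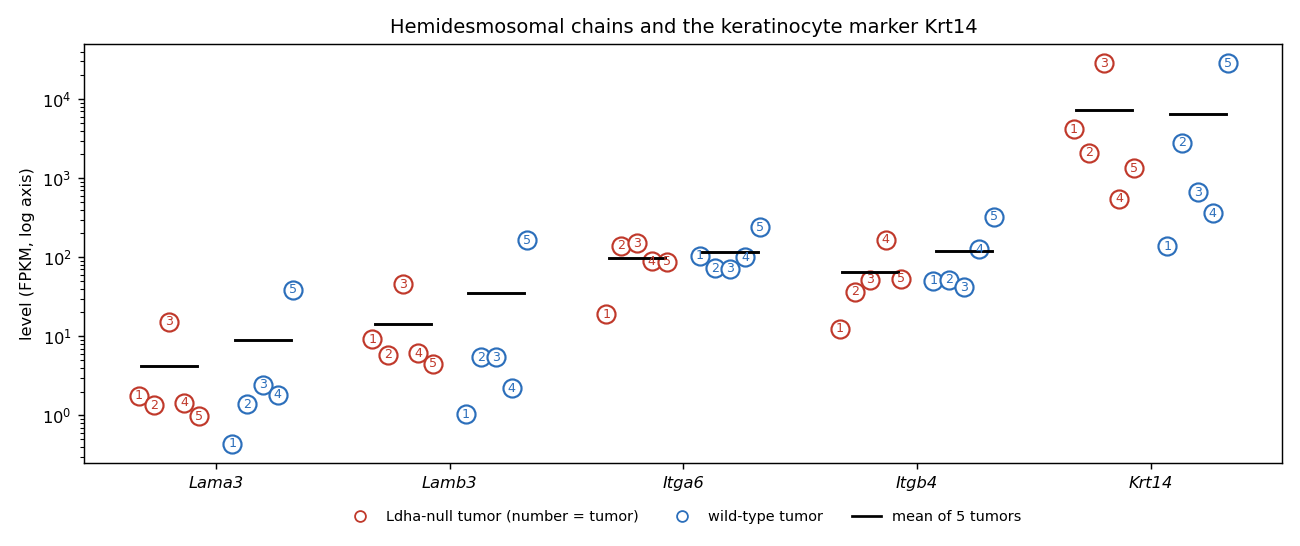
Levels of the 4 hemidesmosomal chains and of *Krt14*, a keratin of basal keratinocytes (FPKM, log axis), with each tumor as a numbered circle and the mean of each genotype as a bar. *Lama3*, *Lamb3* and *Krt14* share *Ldha*-null tumor 3 and wild-type tumor 5 as their highest points, while *Itgb4* is also high in tumors 4 of both genotypes.

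Means were 4.17 ± 2.79 against 8.93 ± 7.42 FPKM for *Lama3* (*Ldha*-null against wild-type, SEM, n = 5 each here and below). They were 14.2 ± 7.82 against 35.5 ± 32.0 for *Lamb3*, 97.6 ± 23.4 against 117 ± 31.0 for *Itga6* and 64.2 ± 26.4 against 119 ± 54.2 for *Itgb4*. None of these differences exceeded the spread between tumors. The fitted log2 fold changes were -0.96 for *Lama3*, with a 95% interval of -3.79 to 1.87, -1.18 (-4.18 to 1.83) for *Lamb3*, -0.23 (-1.33 to 0.87) for *Itga6* and -0.95 (-2.55 to 0.64) for *Itgb4*. In an exact permutation test of log2 CPM, two-sided here and below, p was 0.968 for *Lama3*, 0.659 for *Lamb3*, 0.675 for *Itga6* and 0.389 for *Itgb4*. All 4 fitted values were negative with a median of -0.96, but wild-type tumor 5 decided this direction. Without it the median was 1.04, the values were 1.8 for *Lama3*, 2.38 for *Lamb3* and 0.28 for *Itga6*, and *Itgb4* was at -0.03. Without *Ldha*-null tumor 3, the other tumor rich in keratinocyte markers, the median was -1.62. The means of log2 CPM, which weigh 1 tumor less, were higher in *Ldha*-null tumors for *Lamb3* by 0.67. For the other chains the differences (*Ldha*-null minus wild-type) were -0.71 for *Itgb4*, -0.24 for *Itga6* and -0.04 for *Lama3*.

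Between the chains of one protein, *Lamb3* over *Lama3* ran from 1.22 in wild-type tumor 4 to 5.19 in *Ldha*-null tumor 1, and *Lamb3* was listed above *Lama3* in every tumor. With counts per listed length the ratio was 0.859 to 3.66, and *Lama3* was then the higher in wild-type tumor 4. A ratio between genes depends on the length used for each gene, which for most members was not the listed length, but its order over tumors does not, since the length is the same in every tumor. *Itga6* over *Itgb4* ran from 0.541 in *Ldha*-null tumor 4, 0.726 in wild-type tumor 5 and 0.790 in wild-type tumor 4 to 2.88 in *Ldha*-null tumor 3 and 3.82 in *Ldha*-null tumor 2.

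**Figure D4:**
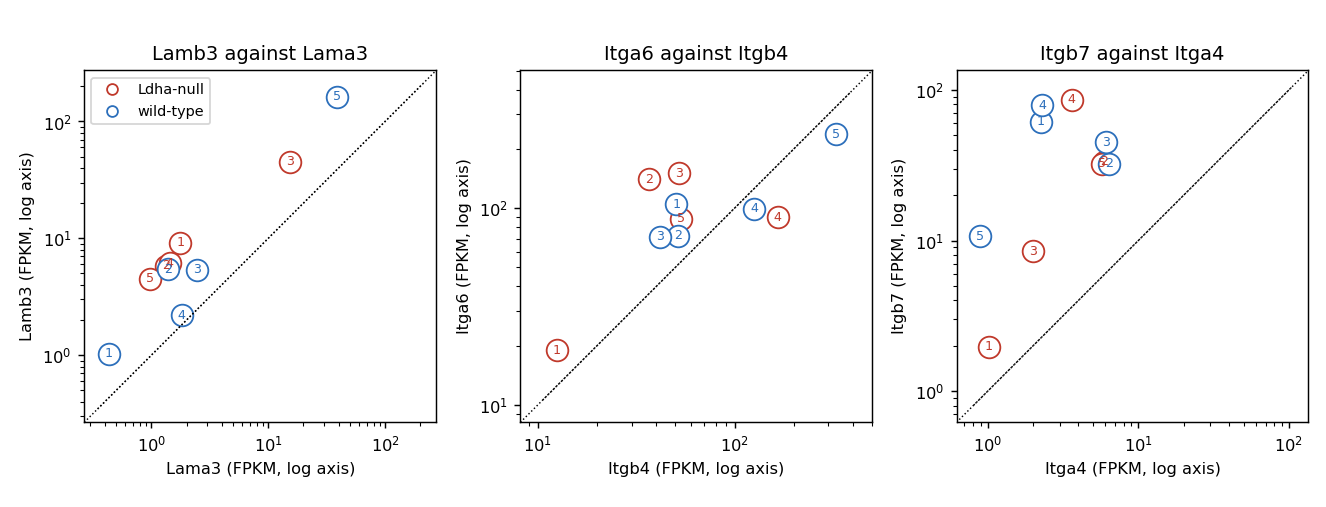
Levels of 3 pairs of chains that join in one protein (FPKM, log axes, each tumor as a numbered circle, with the dotted line at equal levels). In FPKM *Lamb3* lies above *Lama3* in every tumor (with counts per listed length it is 0.859 times *Lama3* in wild-type tumor 4), *Itga6* crosses the line against *Itgb4*, and *Itgb7* is highest in 3 tumors where *Itga4* is between 2.25 and 3.61 FPKM.

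The other epithelial subunits did not share one pattern. *Itga3*, the α subunit of the keratinocyte laminin receptor α3β1, stood at 10.5, 32.0, 48.0, 94.6 and 36.6 FPKM across *Ldha*-null tumors 1 to 5 and at 81.6, 17.96, 79.0, 67.0 and 196 FPKM across wild-type tumors 1 to 5. Its mean was 44.3 ± 14.0 against 88.4 ± 29.3 FPKM, the groups overlapped, and its log2 fold change of -0.99 (95% interval -2.34 to 0.35, edgeR unadjusted p = 0.132) had the smallest p among the negative values (exact permutation p = 0.286). It was -0.38 without wild-type tumor 5 and -0.24 without all 3 tumors that stood apart. *Itgb6*, the β subunit of αvβ6, an epithelial activator of TGF-β, stood at 10.9, 0.297, 5.72, 0.896 and 1.18 FPKM across *Ldha*-null tumors and at 0.238, 0.628, 0.711, 0.521 and 3.25 FPKM across wild-type tumors. It was thus highest in *Ldha*-null tumor 1, the one with skeletal muscle transcripts, and next highest in *Ldha*-null tumor 3 and wild-type tumor 5. The keratinocyte markers summed to 5445 FPKM in *Ldha*-null tumor 1, against 287 to 3649 FPKM outside the 3 tumors that stood apart. Its log2 fold change of 2.35 (-0.20 to 4.90, edgeR unadjusted p = 0.0672) had the smallest p of all members. It was 1.01 when *Ldha*-null tumor 1 was left out and 3.46 when wild-type tumor 5 was, and gave p = 0.262 in the exact permutation test.

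*Lama5*, the α chain of laminin-511 of the mature epidermal basement membrane, stood at 13.4, 5.06, 18.2, 23.8 and 13.9 FPKM across *Ldha*-null tumors and at 3.40, 6.72, 7.87, 4.19 and 52.8 FPKM across wild-type tumors. The genotypes overlapped, with *Ldha*-null tumor 2 among the lower wild-type tumors and wild-type tumor 5 the highest of all (exact permutation p = 0.349). The log2 fold change was 0.10 (-1.67 to 1.87), and 1.68 without wild-type tumor 5, where edgeR's unadjusted p was 0.00551 and its adjusted p 0.706. *Itga2*, which pairs with *Itgb1* as a collagen receptor, was at 0.128 to 4.42 FPKM and highest in wild-type tumor 5 and *Ldha*-null tumor 3. Its log2 fold change was -0.75, and 1.26 without wild-type tumor 5.

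Of the mesenchymal laminin chains, *Lama4* and *Lamb1* were listed above the other α and β chains in the 7 tumors that lay together. *Lamb1*, the β1 chain of most laminins outside the hemidesmosome, stood at 9.51, 231, 65.4, 190 and 189 FPKM across *Ldha*-null tumors 1 to 5 and at 257, 165, 157, 195 and 97.7 FPKM across wild-type tumors 1 to 5. *Lamc1*, the γ1 chain that joins it, stood at 31.1, 184, 58.4, 114 and 86.9 FPKM and at 205, 70.3, 99.9, 94.8 and 81.7 FPKM in the same order. *Lama4*, the α4 chain of vessels and stroma, stood at 6.19, 58.9, 19.5, 52.6 and 48.2 FPKM and at 29.9, 56.4, 35.0, 57.2 and 18.6 FPKM. *Lamb1* and *Lama4* were lowest in the 3 tumors that stood apart, which also had the lowest fibroblast marker sums, and the genotypes overlapped for all 3 chains.

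*Lamb3* gave 60.9% of the summed FPKM of the 3 laminin β chains in wild-type tumor 5, 38.3% in *Ldha*-null tumor 3 and 24.4% in *Ldha*-null tumor 1, against 0.381% to 3.0% in the other 7, where *Lamb1* gave 85.1% to 95.2%. Among the 5 α chains, *Lama3* gave 33.9% in wild-type tumor 5 and 27.2% in *Ldha*-null tumor 3, against 1.14% to 6.42% in the other 8. With counts per listed length these shares were 54.3%, 43.2% and 2.06% to 13.1%, and *Lama3* passed *Lama5* (27.9%) in wild-type tumor 5. The order also changed in *Ldha*-null tumor 3. In FPKM *Lama3* lay there below *Lama4* (34.6%) and *Lama5* (32.3%). With counts per listed length it lay above both (31.4% and 19.3%). *Lama4* gave 64.5% to 88.1% of the α chains in the 7 tumors that lay together and 16.4% in wild-type tumor 5. Log2 fold changes between genotypes were -0.37 (-1.57 to 0.83) for *Lamb1*, -0.16 (-1.0 to 0.69) for *Lamc1* and -0.08 (-1.06 to 0.89) for *Lama4*, with exact permutation p of 0.357, 0.619 and 0.730.

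**Figure D5:**
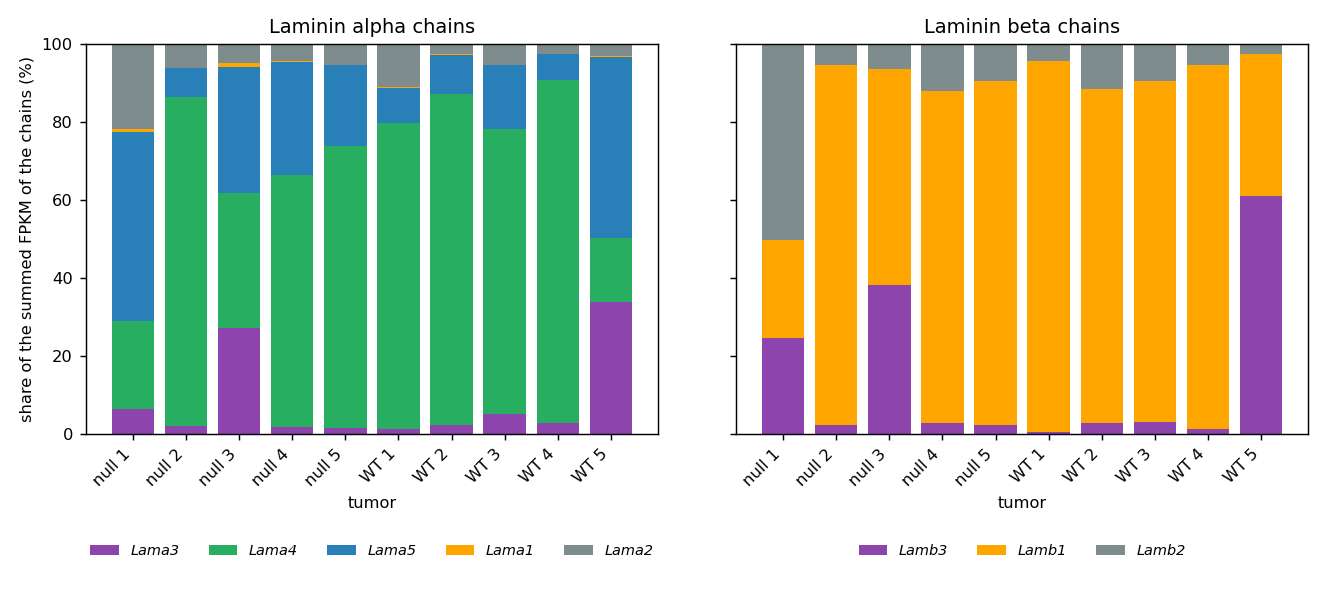
Share of the summed FPKM (vertical axis, percent) taken by each of the 5 laminin α chains (left) and the 3 β chains (right) in each tumor. *Lama3* and *Lamb3* take their highest shares in wild-type tumor 5, at 33.9% and 60.9% (54.3% and 63.8% with counts per listed length), and *Lama4* and *Lamb1* take most of the bar in the 7 tumors that lay together.

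*Lama2* and *Itga7* encode the laminin chain and the laminin receptor subunit that attach skeletal muscle fibres to their basement membrane. *Lama2* stood at 6.05, 4.33, 2.69, 3.53 and 3.52 FPKM across *Ldha*-null tumors and at 4.16, 1.76, 2.52, 1.69 and 3.63 FPKM across wild-type tumors, and its log2 fold change was 0.85 (-0.14 to 1.84, edgeR unadjusted p = 0.0868). *Itga7* stood at 23.4, 10.5, 7.18, 8.47 and 4.26 FPKM across *Ldha*-null tumors and at 15.2, 6.02, 4.38, 3.75 and 7.53 FPKM across wild-type tumors, with a log2 fold change of 1.0 (-0.40 to 2.40). Both were highest in *Ldha*-null tumor 1, the tumor with the skeletal muscle markers. Without that tumor the log2 fold changes were 0.33 for *Lama2* and 0.07 for *Itga7*. The exact permutation p over all tumors was 0.119 for *Lama2* and 0.373 for *Itga7*.

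*Itga5*, *Itgb3*, *Itga11* and the leukocyte subunit *Itgb7* had tumors 4 of both genotypes as their highest pair on the log2 CPM scale, an order held by 3.59% of all tested genes. *Itga5*, the fibronectin receptor subunit, stood at 4.58, 47.8, 18.9, 97.6 and 29.3 FPKM across *Ldha*-null tumors 1 to 5 and at 77.8, 23.1, 78.0, 112 and 18.4 FPKM across wild-type tumors 1 to 5. *Itgb3*, which pairs with *Itgav* in the vitronectin receptor, stood at 0.441, 6.88, 4.72, 17.8 and 4.10 FPKM and at 5.64, 5.27, 4.72, 30.0 and 5.92 FPKM. *Itga11*, a collagen receptor subunit of fibroblasts, stood at 1.19, 1.81, 2.15, 4.91 and 0.691 FPKM and at 0.960, 0.919, 0.915, 5.10 and 2.73 FPKM. The same tumors had the 2 highest levels of *Fn1*, which encodes the *Itga5* ligand fibronectin, at 1301 and 1151 FPKM against 10.6 to 923 elsewhere, and of the cytolinker *Plec*, at 394 and 481 FPKM. The genotypes overlapped for each of these subunits, with log2 fold changes of -0.64 (-2.09 to 0.81) for *Itga5*, -0.63 (-2.31 to 1.06) for *Itgb3* and 0.11 (-1.33 to 1.55) for *Itga11*, and exact permutation p of 0.357 for *Itga5* and 0.706 for *Itga11*.

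Of the other mesenchymal members, *Itgb5*, which pairs with *Itgav*, was the most abundant, at 54.9 to 301 FPKM. *Itga1*, *Itga8* and *Itga10*, which pair with *Itgb1*, stayed between 0.283 and 7.07 FPKM. The log2 fold change of *Itga8* was -0.62, and 0.09 without wild-type tumor 5. Of these, *Itga1* overlaps the protein-coding gene *Pelo* on the same strand, at up to 20.2 FPKM for the neighbour.

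Leukocyte subunits were low in *Ldha*-null tumor 1 and, for *Itgam*, *Itgb2* and *Itgb7*, also in *Ldha*-null tumor 3 and wild-type tumor 5. On the log2 CPM scale these were the lowest 3 tumors for 6 of 35 members and for 1525 of 15176 genes. *Itgam*, the α subunit of the complement receptor αMβ2 (Mac-1) of macrophages and neutrophils, stood at 2.25, 79.4, 17.0, 38.0 and 50.4 FPKM across *Ldha*-null tumors 1 to 5 and at 44.1, 77.6, 56.6, 47.3 and 7.37 FPKM across wild-type tumors 1 to 5. *Itgb2*, the β subunit it shares with *Itgal* and *Itgax*, stood at 3.07, 91.4, 22.0, 40.5 and 49.8 FPKM and at 44.4, 62.4, 57.0, 37.5 and 10.1 FPKM. The genotypes overlapped, with *Ldha*-null tumor 2 the highest for both. Log2 fold changes were -0.32 (-1.83 to 1.19) for *Itgam* and -0.02 (-1.37 to 1.33) for *Itgb2*, with exact permutation p of 0.548 and 0.730. *Itgb2* held a steady ratio to the sum of its α partners, 0.671 to 1.001, which was 0.547 to 0.921 with counts per listed length.

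*Itgb7*, known from gut-homing and epithelial lymphocytes as the partner of *Itga4* and *Itgae*, did not follow them. It stood at 1.98, 33.2, 8.46, 85.8 and 32.4 FPKM across *Ldha*-null tumors 1 to 5 and at 61.7, 32.4, 44.8, 79.0 and 10.7 FPKM across wild-type tumors 1 to 5. *Itga4* stood at 1.02, 5.93, 2.01, 3.61 and 5.70 FPKM and at 2.25, 6.38, 6.09, 2.31 and 0.891 FPKM, and *Itgae* was at 0.390 to 2.49 FPKM, highest in wild-type tumor 2. The highest *Itgb7* was thus in *Ldha*-null tumor 4, wild-type tumor 4 and wild-type tumor 1, where *Itga4* was lower than in the other 4 of the 7 tumors that lay together. *Itgb7* was 17.9, 28.7 and 22.1 times the sum of both partners in those 3 tumors, and 1.41 to 8.04 times in the other 7. With counts per listed length these ratios were 19.4, 34.7 and 25.6, and 1.48 to 7.99. *Ptprc*, the pan-leukocyte antigen, stood at 17.9, 15.4 and 11.4 FPKM in the same 3 tumors and at 22.6 to 39.0 FPKM in those other 4. Other leukocyte markers did not separate these tumors. *Csf1r* stood at 91.0, 84.2 and 77.5 FPKM in the 3 and at 62.3 to 191 FPKM in the other 4. *Cd68*, *Lyz2*, *Laptm5* and *S100a8* overlapped likewise. The T cell marker *Cd3e* was at 3.65, 0.866 and 0.202 FPKM in those 3 tumors and at 0.605, 7.005, 6.45 and 2.74 FPKM in the other 4 (tumors 2 and 5 of the *Ldha*-null group, tumors 2 and 3 of the wild-type group). The log2 fold change of *Itgb7* between genotypes was -0.52 (-2.13 to 1.08), with an exact permutation p of 0.310.

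*Itgal*, *Itgax* and *Itga4* were at 0.369 to 8.22 FPKM in all tumors, and each had its highest level in wild-type tumor 2. *Itga4* and *Itgae* overlap the genes *Cerkl* and *Gsg2* on the opposite strand, and with no strand kept in the library the reads cannot be separated. *Itgad* overlaps *Cox6a2*, a muscle gene at 2711 FPKM in its highest tumor, and its own counts are not interpreted.

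Partner subunits were compared across the 7 tumors that lay together on the first principal component, for 24 pairs that join in one dimer or trimer. In 0 of 24 pairs was Pearson's r of log2 CPM past the threshold after Benjamini-Hochberg adjustment (exact permutation over 5040 pairings). At an unadjusted p under 0.05 there were 4 pairs. The share among all pairs of genes over these tumors was not computed, so this count has no background and is not read as a result. *Itgam* and *Itgb2* had r = 0.89 (permutation p = 0.00298, adjusted 0.0714) and Spearman's rho = 0.79 (permutation p = 0.0480, adjusted 0.329), with r = 0.72 without the 2 tumors farthest from the median of *Itgam*. *Lamb1* and *Lamc1* had r = 0.89 (permutation p = 0.0115, adjusted 0.138) and rho = 0.71 (permutation p = 0.0881), with r = 0.50 without the 2 farthest tumors, so that relation was weaker without them. For *Itgav* with *Itgb1* r was 0.80 (permutation p = 0.0325, adjusted 0.260), and for *Lama2* with *Lamc1* it was 0.76 (permutation p = 0.0498, adjusted 0.294). *Itga6* and *Itgb4* had r = -0.0034 (permutation p = 0.995), and r = 0.49 without the 2 tumors farthest from the median of *Itga6*. *Itga4* and *Itgb7* had r = -0.79 (permutation p = 0.0613, adjusted 0.294). The leukocyte markers summed to 2505 to 5447 FPKM over these 7 tumors, and their part in these correlations was not tested.

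Among the broadly used subunits, *Itgb1* was the most abundant β chain in every tumor, at 82.4, 487, 251, 309 and 335 FPKM across *Ldha*-null tumors 1 to 5 and at 270, 389, 230.1, 330 and 340.1 FPKM across wild-type tumors 1 to 5. It gave 35.9% to 57.8% of the summed β subunit FPKM, while *Itgb4* gave 3.84% to 37.8%, with its highest share in wild-type tumor 5. With counts per listed length *Itgb4* was 1.19 times *Itgb1* in wild-type tumor 5, so their order there depends on the length. *Itgav*, the α subunit of the RGD-binding integrins, stood at 10.7, 96.2, 41.6, 70.2 and 78.5 FPKM and at 84.2, 99.4, 51.9, 68.8 and 50.04 FPKM. Log2 fold changes were -0.05 (-0.76 to 0.66) for *Itgb1* and -0.23 (-1.05 to 0.58) for *Itgav*, with exact permutation p of 0.754 and 0.484. *Ldha*-null tumor 1 was the lowest for both genes, and the genotypes overlapped. It lay below the next lowest tumor by 1.48 on log2 FPKM and 0.58 on log2 CPM for *Itgb1*, and by 1.96 and 1.35 for *Itgav*.

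*Itga2b*, the α subunit of the platelet fibrinogen receptor with *Itgb3*, stood at 3.75, 13.4, 11.1, 25.5 and 24.2 FPKM across *Ldha*-null tumors and at 19.96, 24.3, 26.4, 22.4 and 5.80 FPKM across wild-type tumors. In FPKM it was lowest in the 3 tumors that stood apart, while on log2 CPM *Ldha*-null tumor 2 lay below *Ldha*-null tumor 3. *Gp9*, a platelet glycoprotein, was at 0 to 4.83 FPKM and highest in *Ldha*-null tumor 3, and *Pf4*, a platelet chemokine that macrophages can also make, was at 10.5 to 215 FPKM. The 4 platelet markers summed to 17.8 to 221 FPKM, and their part in *Itga2b* was not tested. The median ratio of *Itga2b* to *Itgb3* was 2.94 in FPKM and 1.08 with counts per listed length.

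*Lama1*, a chain of embryonic basement membranes, stayed at or under 0.656 FPKM in every tumor, and its log2 fold change of 1.71 (-0.35 to 3.77, edgeR unadjusted p = 0.0943) rests on 0 to 94 counts. *Itgb8*, which activates TGF-β with *Itgav*, was at 0.354 to 3.73 FPKM, with a log2 fold change of 1.0 (-0.23 to 2.23). Without *Ldha*-null tumor 3 the values were 0.84 for *Lama1* and 0.30 for *Itgb8*. *Lamb2*, a chain of vessel and muscle basement membranes, was at 6.99 to 26.98 FPKM, *Itga9* at 3.03 to 24.6 FPKM and *Lamc3* at 0.159 to 4.10 FPKM. Over all groups, 20 of the 36 members were at 1 FPKM or more in every tumor, and 2, *Itgad* and *Lama1*, were under 1 FPKM in every tumor.

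Genes that work with these receptors were read from 4 lists, and 0 of their members passed the test. The 6 hemidesmosome partners had a median log2 fold change of 0.01, with 3 positive and 3 negative. *Col17a1*, the transmembrane collagen of the hemidesmosome, was at 483 FPKM for wild-type tumor 5, at 114 for *Ldha*-null tumor 3 and at 4.55 to 25.2 FPKM elsewhere, the order seen for *Lama3* and *Lamb3*. *Plec*, which links the *Itgb4* tail to keratin, was highest in wild-type tumor 4 and *Ldha*-null tumor 4, in which *Itgb4* was also high. In wild-type tumor 5, where *Itgb4* was highest, *Plec* was at 118 FPKM, below its median of 151 FPKM over all tumors. Of the 8 other basement membrane genes 4 were positive and 4 negative (median 0.01), and of the 10 integrin ligands 4 were positive and 6 negative (median -0.20).

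Of the 15 adaptors that link integrins to actin 14 were tested, with 5 positive and 9 negative values, a median of -0.13 and 2 genes at an unadjusted p under 0.05, both higher in *Ldha*-null tumors. These were *Itgb1bp2*, which encodes the muscle protein melusin, at 77.9 FPKM for *Ldha*-null tumor 1 and 0.255 to 1.62 FPKM elsewhere, and *Tln2*, a talin, at 11.5 FPKM in that tumor and 0.940 to 3.08 FPKM elsewhere. Both high values were in the tumor with the skeletal muscle markers. *Fermt1*, the kindlin of keratinocytes, was at 25.5 FPKM for wild-type tumor 5 and 15.5 for *Ldha*-null tumor 3, and *Fermt3*, the kindlin of blood cells, was lowest in *Ldha*-null tumor 1 and wild-type tumor 5, at 1.53 and 8.90 FPKM.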

How the data were processed

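RNA-seq of 10 mouse tumors (5 per genotype, by the labels) was analysed. The authors extracted RNA from whole tumors, enriched it on oligo(dT) beads, aligned reads to mm10 with TopHat2 after CASAVA 1.8 and counted fragments per gene with HTSeq. The counts were deposited as whole numbers per gene. The FPKM values were also deposited by the authors; the gene length behind them was within 1% of the listed length for 8 members and was the same in every tumor. All 36 members overlapped their gene in GENCODE M21, 23 with the same coordinates.

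Members and lists were chosen with earlier results of these data known. From the deposited counts, genes were kept by filterByExpr (minimum count 10, minimum total 15), scaled by TMM and tested with the quasi-likelihood F-test of edgeR 4.0.16 in R 4.3.3, with Benjamini-Hochberg adjustment over all 15176 genes and a threshold of 0.05. The biological coefficient of variation was 63.4%. For single members, log2 CPM (prior count 2) was also compared by exact permutation of the tumors, on both sides. The 5 tumors of a genotype were tested for log2 CPM values far from the rest by Dixon's ratio (limit 0.71). Of the 37 genes that match the rule by symbol, 1 is not reported here. Full statistics were given to the hemidesmosomal chains, to *Itgb1*, *Itgav*, *Itgb2*, *Itgam*, *Itga5*, *Itga7*, *Itga11*, *Lama2*, *Lama4*, *Lamb1* and *Lamc1*, and to the 3 members with the smallest p in each direction; other members and non-members were named after their values were seen. Of 8 leukocyte markers 7 were matched by symbol. Alternatives were DESeq2 1.42.0, limma-voom and limma on log2(FPKM + 0.1) (limma 3.58.1), other scalings and filters, tumor number as a block and leaving out tumors. The edgeR script was tested on simulated data. Reads were not analysed here.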

Additional observations from a re-analysis of the deposited data

Results flagged for a closer look

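For each of the 35 tested members and each genotype, the highest and lowest of 5 tumors were compared with the nearest other tumor. The comparison was made on log2 CPM, while the levels below are in FPKM. Of 70 such groups 8 held a tumor far from the rest (11.4%), where chance gives about 1 in 20, or 3.5. Over all tested genes 8.86% of such groups did.

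Wild-type tumor 5 stood apart 4 times on log2 CPM. *Lama3* and *Lamb3* were not flagged on that scale. In FPKM they stood at 38.6 and 163 in this tumor, against 0.433 to 2.44 and 1.03 to 5.44 in the other wild-type tumors. Among the flagged members, wild-type tumor 5 was an extreme for *Itga6*, *Itgam*, *Itgb2* and *Itga2b*. It was the highest for *Itga6*, at 238 FPKM against 71.7 to 105 FPKM in the other wild-type tumors. It was the lowest for *Itgam*, at 7.37 FPKM against 44.1 to 77.6 FPKM, for *Itgb2*, at 10.1 FPKM against 37.5 to 62.4 FPKM, and for *Itga2b*, at 5.80 FPKM against 19.96 to 26.4 FPKM. Its leukocyte markers summed to 819 FPKM, and those of *Ldha*-null tumor 1 to 999 FPKM, of which the neutrophil gene *S100a8* gave 906.

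*Ldha*-null tumor 1 stood apart 3 times. It was the highest for *Lama2*, at 6.05 FPKM against 2.69 to 4.33 FPKM in the other *Ldha*-null tumors, and the lowest for *Itga8*, at 0.410 FPKM against 1.92 to 2.74 FPKM, and for *Itgax*, at 0.369 FPKM against 3.09 to 7.69 FPKM. Wild-type tumor 4 stood apart once, as the highest for *Itgb3*, at 30.0 FPKM against 4.72 to 5.92 FPKM.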

How the results depend on the processing

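The count of members past the threshold was 0 under each of the 19 alternatives run (33 members remained on log2(FPKM + 0.1) and 30 at a mean CPM of at least 5). DESeq2 gave no p for *Lama3*, *Lamb3* and *Itga2*, so they could not pass there. The count of all genes past the threshold was 0 under each but DESeq2, which gave 3. These were *Chodl*, *G0s2* and *Trim12a*, named after their values were seen, of which *Chodl* and *Trim12a* did not pass edgeR's filter. Leaving out 1 tumor at a time moved the median log2 fold change of the hemidesmosomal members from -1.62 to 1.04, of the other epithelial members from -0.57 to 1.47, of the mesenchymal from -0.45 to 0.11, of the leukocyte from -0.31 to 0.22 and of the broad members from -0.25 to 0.14. The highest values of the first 2 groups, 1.04 and 1.47, came without wild-type tumor 5. Without that tumor 4 members had an unadjusted p under 0.05 in edgeR (*Lama5*, *Lamb3*, *Itgb6* and *Lama1*), where 7.01% of all genes had one, and 0 of them passed. Without all 3 tumors that stood apart the hemidesmosomal median was 0.24. Between 0 and 1 partner pairs passed with 1 tumor left out, the 1 being *Itgam* with *Itgb2* without wild-type tumor 4 (r = 0.92, exact permutation, adjusted p = 0.0333). Of 658 values of single members under the alternatives, 90 changed sign and 6 moved by more than 1 SD, and the cause was not tested.

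In the labels, tumors of the 2 genotypes share only a number, while the study describes littermate pairs in general. Between tumors of the same number, the correlations of deviations were -0.04, 0.06, -0.27, 0.55 and -0.51 for numbers 1 to 5. Of the 5 numbers, 1 matched best with itself. *Ldha*-null tumors 1 and 3 both matched best with wild-type tumor 5, the other tumor that stood apart. These values therefore cannot decide whether equal numbers were littermates. With the replicate block 0 members and 0 genes passed, 120 genes had an unadjusted p under 0.05 against 601 without it, 4 members changed sign and the hemidesmosomal median was 0.09. Low counts limit *Itgad*, which was not tested, and *Lama1*, whose values rest on 0 to 94 counts; depth was not otherwise tested as a limit.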
